A study of Mus musculus with 24 samples.

Results

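Levels of RNA are described for genes of polyamine synthesis, its control and breakdown, and the opening step of methionine salvage in mouse liver. The 10 genes were taken by symbol from the table of 15161 genes: Odc1, Oaz1, Azin1, Amd1, Srm, Sms, Sat1, Paox, Smox and Mtap. Each had 1 row in the table, and all 10 were among the 13441 genes that passed a filter on low counts and were tested. RNA of liver samples from male C57BL6/J mice, an inbred strain, 4 months old, was sequenced in 24 libraries. The 4 diet groups of 6 libraries were casein MR (oxidized casein with 0.17% methionine, MR standing for methionine restriction), casein control (casein that the labels do not call oxidized, 0.86% methionine), elemental MR (elemental, that is free, amino acids, 0.17% methionine) and elemental control (elemental amino acids, 0.86% methionine). Oxidation of casein converts methionine into forms that the body uses poorly, and the sample labels name oxidation for the casein MR diet alone. If the control casein was not oxidized, restriction and oxidation cannot be told apart on that protein. The time on the diets is not given in the sources used here. Libraries carry the names of their labels, such as C_MR_3438 for casein MR, C_C for casein control, E_MR for elemental MR and E_C for elemental control. The labels number them but do not state that each number is a mouse, so every p-value here measures only the spread among these samples, which may be technical.

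Polyamines (putrescine, spermidine and spermine) are small cations that bind RNA and that growing cells need. Ornithine decarboxylase makes putrescine, and aminopropyl groups taken from decarboxylated S-adenosylmethionine extend it to spermidine and then spermine. Each transfer leaves methylthioadenosine, which the salvage pathway turns back into methionine. Several proteins of the pathway, among them ornithine decarboxylase, antizyme and S-adenosylmethionine decarboxylase, are known to be set by translation and protein turnover, which RNA levels do not measure.

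Libraries held 13.5 M to 20.8 M counted reads. The 10 genes were covered by 22 (Smox) to 1245 (Oaz1) reads in a library. Levels are given as CPM, counts per 1 M reads of the library size as scaled by edgeR (M, mega), with the SD over 6 libraries. Library make-up moved with diet: the 20 most abundant genes held 30.1 to 31.4% of reads in casein MR against 36.1 to 37.6% in casein control, and 32.0 to 33.3% in elemental MR against 36.6 to 38.8% in elemental control. The 5 hepatocyte markers tested were abundant in every library, with a summed level of 58900 CPM or more. They summed to 58900 to 66800 CPM in casein MR against 91300 to 109000 in casein control, and 80400 to 88300 CPM in elemental MR against 102000 to 112000 in elemental control. Most of this sum was Alb, at 41800 to 83600 CPM over all libraries. All 5 fell with casein MR and 2 fell with elemental MR. Of 5 cholangiocyte markers, which ran at a summed 20.5 to 81.5 CPM over all libraries, 3 fell with casein MR and 1 fell with elemental MR. Of 5 stellate cell markers, 1 rose with casein MR and 2 fell with elemental MR. Of 5 endothelial markers, 1 fell with casein MR and 1 rose with elemental MR. Of 5 erythroid markers, 1 fell with each, and of 5 markers of dividing cells, 1 fell with elemental MR. No marker of Kupffer cells (6 tested) or of lymphocytes and neutrophils (2 tested) was called with either MR. Of all genes tested, 10.6% were called higher and 12.7% lower with casein MR, and 6.78% higher and 6.64% lower with elemental MR. In bulk tissue, fewer cells of a type and less RNA per cell cannot be told apart, and the part of these marker changes in the results below was not tested. Casein MR library C_MR_3438 stood apart by skeletal muscle transcripts, with 6 muscle markers at a summed 1460 CPM against at most 53.3 CPM in the other casein MR libraries. All 6 muscle markers were called higher with casein MR.

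Casein MR was accompanied by higher Amd1, Mtap and Sms and by lower Paox and Azin1 RNA. Elemental MR was accompanied by higher Amd1 and by lower Srm, Paox and Azin1 RNA. All changes were below 2-fold, from 1.5-fold (Amd1 with casein MR) to 0.702-fold (Paox with casein MR). In edgeR's quasi-likelihood test at an adjusted p of 0.05, 5 of the 10 genes passed with casein MR (3 higher, 2 lower), where 23.3% of all tested genes passed (10.6% higher, 12.7% lower). With elemental MR 4 passed (1 higher, 3 lower), where 13.4% of all genes passed (6.78% higher, 6.64% lower). The median log2 fold change of the 10 genes was 0.32 with casein MR and -0.17 with elemental MR, against 0.01 and 0.00 over all genes. The median size of the change, without its sign, was 0.38 and 0.26 for the 10 genes, against 0.18 and 0.16 over all genes.

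**Figure D1:**
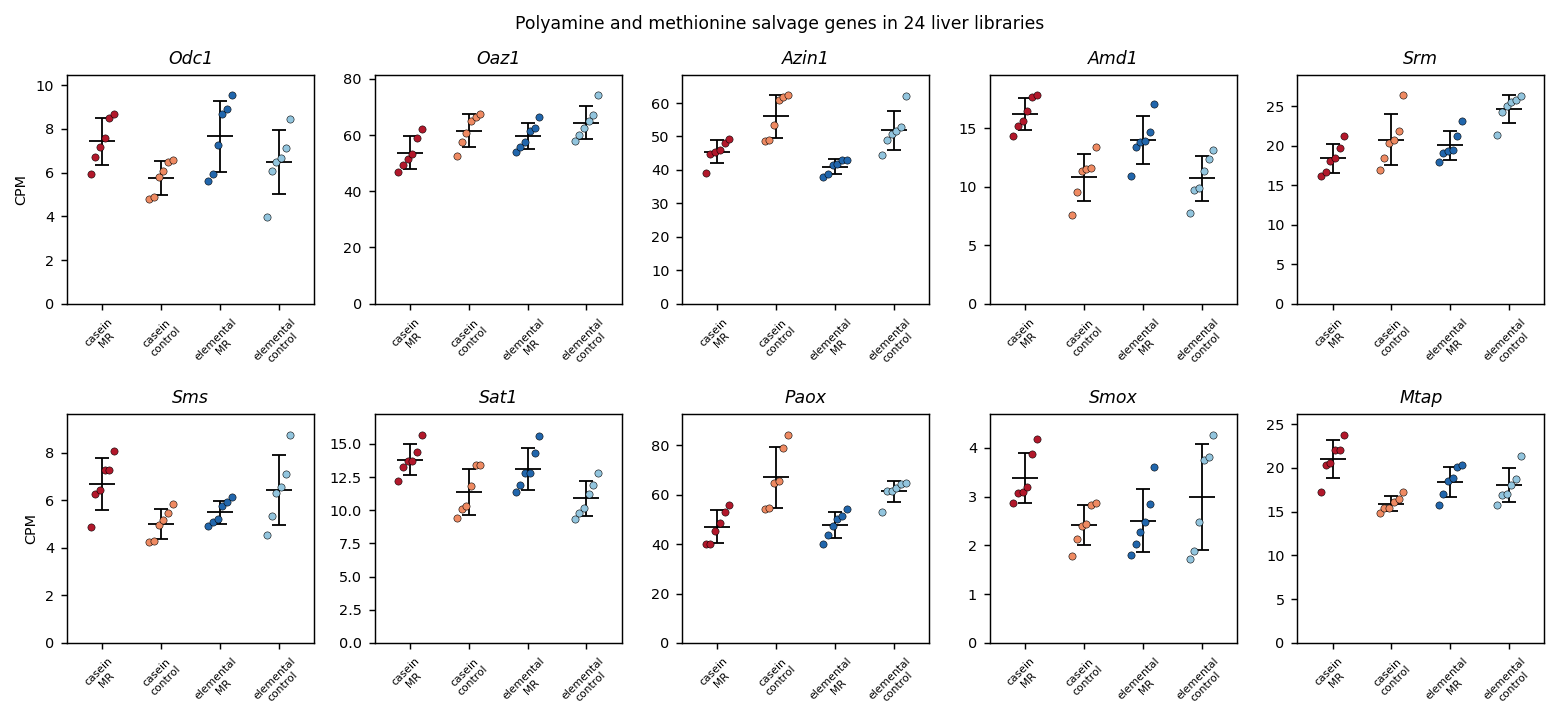
CPM of the 10 genes (vertical axes, from 0) in each of the 24 liver libraries, by diet group; points are libraries and bars are the mean with SD (n = 6). The casein MR libraries lie above all casein control libraries for Amd1 (14.3 CPM or more against 13.4 or less), Smox (2.87 or more against 2.86 or less) and Mtap (17.3 or more against 17.2 or less).

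The groups separated without overlap for some of these genes. With casein MR the libraries did not overlap for Amd1, Mtap and Smox, all higher. Of all genes, 4.82% separated in that direction, 6.18% in the other and 11% in either. The gaps were narrow for Mtap and Smox, as the plot of CPM by library shows. With elemental MR they did not overlap for Azin1, which was lower, where 3.59% of all genes separated in that direction, 3.24% in the other and 6.83% in either.

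Odc1 encodes ornithine decarboxylase, which makes putrescine. Its lowest, median and highest levels were 5.92, 7.39 and 8.67 CPM in casein MR, against 4.78, 5.94 and 6.57 CPM in casein control. In elemental MR they were 5.64, 7.97 and 9.54 CPM, against 3.99, 6.58 and 8.45 CPM in elemental control. The groups overlapped on both proteins. The log2 fold change was 0.36 ± 0.15 with casein MR (SE; adjusted p = 0.0928) and 0.24 ± 0.15 with elemental MR (adjusted p = 0.338), and neither passed in the fit of all groups. With the casein groups fitted alone, Odc1 passed with casein MR (0.37, adjusted p = 0.0469). Averaged over both proteins, Odc1 was higher with MR by 0.30 ± 0.11 on the log2 scale (adjusted p = 0.0353). That call was lost in 9 of 24 fits that each left out 1 library (highest adjusted p = 0.0690), those without C_MR_3412 or C_MR_3419, C_C_3413 or C_C_3429, E_MR_3403, E_MR_3405 or E_MR_3416, or E_C_3417 or E_C_3427.

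The regulators of ornithine decarboxylase were both lower in MR means. Oaz1 encodes antizyme, which binds the enzyme and sends it to the proteasome, and Azin1 encodes antizyme inhibitor, an inactive relative of the enzyme that binds antizyme in its place. Azin1 averaged 45.5 ± 3.56 CPM in casein MR and 56.0 ± 6.42 CPM in casein control (SD, n = 6 each). Its casein MR libraries ran from 39.1 to 49.3 CPM (median 45.8), overlapping the casein controls at 48.6 to 62.3 CPM (median 57.1). It averaged 41.0 ± 2.17 CPM in elemental MR and 51.8 ± 5.78 CPM in elemental control. All 6 elemental MR libraries, at 37.8 to 43.0 CPM (median 41.6), lay below all elemental controls, at 44.5 to 62.0 CPM (median 51.1). Azin1 fell with casein MR (log2 fold change -0.30 ± 0.08, adjusted p = 0.00456) and with elemental MR (-0.34 ± 0.08, adjusted p = 0.00359).

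Oaz1 changed less. It ran from 47.0 to 62.3 CPM in casein MR (median 52.3) against 52.5 to 67.5 CPM in casein control (median 62.8), and from 54.1 to 66.4 CPM in elemental MR (median 59.4) against 57.7 to 74.1 CPM in elemental control (median 63.7). The groups overlapped on both proteins. Its log2 fold change was -0.20 ± 0.08 with casein MR (adjusted p = 0.0660) and -0.11 ± 0.08 with elemental MR (adjusted p = 0.384). Averaged over both proteins it was lower with MR, by -0.15 ± 0.05 on the log2 scale (adjusted p = 0.0317). That call was lost with 1 surrogate variable in the model (adjusted p = 0.0937) and in 11 of 24 fits without 1 library (highest adjusted p = 0.0686), those without C_MR_3412, C_MR_3419 or C_MR_3425, C_C_3413, C_C_3429 or C_C_3437, E_MR_3416 or E_MR_3424, or E_C_3401, E_C_3428 or E_C_3430. With casein MR, Oaz1 passed without C_MR_3431 or C_MR_3433 or without C_C_3436 (lowest adjusted p = 0.0230).

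Amd1 had the widest range over the 4 diets. It encodes S-adenosylmethionine decarboxylase, the step that commits S-adenosylmethionine to polyamines. Its lowest, median and highest levels were 14.3, 16 and 17.8 CPM in casein MR, against 7.59, 11.4 and 13.4 CPM in casein control. In elemental MR they were 10.9, 13.8 and 17.1 CPM, against 7.79, 10.6 and 13.1 CPM in elemental control. Every casein MR library was above every casein control, while the elemental groups overlapped. Amd1 rose with casein MR (log2 fold change 0.59 ± 0.12, adjusted p = 0.000802) and with elemental MR (0.38 ± 0.12, adjusted p = 0.0433). The elemental call was near the threshold: it was lost with 1 surrogate variable or with the elemental groups fitted alone (highest adjusted p = 0.0533), and in 9 of 24 fits without 1 library (highest adjusted p = 0.111), those without E_MR_3405, E_MR_3416, E_MR_3420, E_MR_3423 or E_MR_3424 or E_C_3418, E_C_3427, E_C_3428 or E_C_3430. Reads of the near-identical copy Amd2 may have been split from or added to Amd1. Amd2 held 144 reads over all libraries against 5314 for Amd1. The summed counts gave the same calls (adjusted p = 0.000835 with casein MR and 0.0489 with elemental MR). Reads that match both copies may have been left out of the counts, which the sum cannot show.

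The synthases that use the product of Amd1 were called in different comparisons, and they were not tested against each other. Srm encodes spermidine synthase, which turns putrescine into spermidine, and Sms encodes spermine synthase, which turns spermidine into spermine. Srm averaged 18.4 ± 1.89 CPM in casein MR and 20.8 ± 3.26 CPM in casein control. Srm averaged 20.1 ± 1.83 CPM in elemental MR and 24.7 ± 1.77 CPM in elemental control (SD, n = 6 each). The elemental MR libraries ran from 18.0 to 23.2 CPM (median 19.4) and overlapped the controls, at 21.4 to 26.3 CPM (median 25.3), by 1 library of each group. Srm fell with elemental MR (log2 fold change -0.30 ± 0.09, adjusted p = 0.0231), a call lost without E_MR_3424 or E_C_3430 (highest adjusted p = 0.0607). With casein MR its value was -0.18 ± 0.09 (adjusted p = 0.175), with libraries at 16.2 to 21.3 CPM (median 18.3) against 17.0 to 26.4 CPM (median 20.6).

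Sms ran from 4.88 to 8.06 CPM in casein MR (median 6.84) against 4.24 to 5.83 CPM in casein control (median 5.08). It ran from 4.92 to 6.13 CPM in elemental MR (median 5.48) against 4.55 to 8.76 CPM in elemental control (median 6.43). Only library C_MR_3419 lay within the range of the casein controls, whereas all elemental MR libraries lay within that of the elemental controls. Sms rose with casein MR (log2 fold change 0.43 ± 0.14, adjusted p = 0.0253), a call lost without C_MR_3412, C_MR_3425 or C_MR_3438 or C_C_3421 or C_C_3429 (highest adjusted p = 0.0685). Without C_MR_3438, the library with the most muscle transcripts, the value was 0.40. C_MR_3425, which had the highest Sms level in casein MR, also carried some, with the muscle marker Acta1 reaching 19.8 CPM. Acta1 ran from 1.03 to 2.36 CPM in the remaining casein MR libraries and up to 9.63 CPM in casein control. Sms with C_MR_3425 and C_MR_3438 left out together was not tested. With elemental MR the Sms value was -0.22 ± 0.14 (adjusted p = 0.324).

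Breakdown of spermine and spermidine back to smaller polyamines begins with Sat1, a spermidine/spermine acetyltransferase, whose acetylated products Paox oxidises in peroxisomes. Smox oxidises spermine directly. Paox averaged 47.1 ± 6.63 CPM in casein MR and 67.1 ± 12.4 CPM in casein control, and 47.8 ± 5.24 CPM in elemental MR and 61.3 ± 4.32 CPM in elemental control (SD, n = 6 each). The casein MR libraries ran from 39.9 to 55.7 CPM (median 46.9) against 54.4 to 84.3 CPM in casein control (median 65.3), and the elemental MR libraries from 40.0 to 54.2 CPM (median 48.8) against 52.9 to 64.6 CPM in elemental control (median 62.3). In each comparison the highest MR library passed the lowest control, so the groups overlapped slightly. Paox fell with casein MR (log2 fold change -0.51 ± 0.10, adjusted p = 0.000527) and with elemental MR (-0.36 ± 0.10, adjusted p = 0.0201). The elemental call was lost without E_MR_3405 (adjusted p = 0.0614).

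Sat1 averaged 13.8 ± 1.17 CPM in casein MR and 11.4 ± 1.73 CPM in casein control, and 13.1 ± 1.56 CPM in elemental MR and 10.9 ± 1.34 CPM in elemental control (SD, n = 6 each). Its ranges overlapped, at 12.2 to 15.7 CPM in casein MR (median 13.7) against 9.45 to 13.4 CPM in casein control (median 11.0), and at 11.4 to 15.6 CPM in elemental MR (median 12.8) against 9.31 to 12.8 CPM in elemental control (median 10.7). The log2 fold change was 0.27 ± 0.10 on each protein. Neither passed (adjusted p = 0.0512 with casein MR and 0.0745 with elemental MR), but averaged over both proteins Sat1 was higher with MR (0.27 ± 0.07, adjusted p = 0.00432), as it was in all 24 fits without 1 library. The casein value passed under 4 alternatives (both other scalings, no filter on low counts and DESeq2; lowest adjusted p = 0.0438) and without C_MR_3438, C_C_3407 or C_C_3436, E_MR_3405, or E_C_3418 or E_C_3430 (lowest adjusted p = 0.0191). The elemental value passed without E_C_3418 (adjusted p = 0.0406).

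Smox had the fewest reads of the 10 genes, between 22 and 85 in a library. It ran from 2.87 to 4.19 CPM in casein MR (median 3.15) against 1.78 to 2.86 CPM in casein control (median 2.42). It ran from 1.81 to 3.61 CPM in elemental MR (median 2.38) against 1.73 to 4.27 CPM in elemental control (median 3.11), and the coefficient of variation in elemental control was 36.6%. Although the casein groups did not overlap, the log2 fold change of 0.49 ± 0.21 did not pass in the fit of all groups (adjusted p = 0.0961). It passed in 1 of 6 alternatives, with the casein groups fitted alone (adjusted p = 0.0368), a fit that leaves the elemental libraries out of the estimated spread. The highest adjusted p among the alternatives was 0.481. With elemental MR the value was -0.25 ± 0.21 (adjusted p = 0.501).

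Mtap encodes methylthioadenosine phosphorylase, which cleaves the by-product of both synthases and opens methionine salvage. It averaged 21.0 ± 2.20 CPM in casein MR and 15.9 ± 0.855 CPM in casein control, and 18.4 ± 1.76 CPM in elemental MR and 18.0 ± 1.95 CPM in elemental control (SD, n = 6 each). The casein MR libraries ran from 17.3 to 23.8 CPM (median 21.3) against 14.9 to 17.2 CPM in casein control (median 15.8). The elemental MR libraries, at 15.8 to 20.3 CPM (median 18.7), overlapped the elemental controls, at 15.8 to 21.4 CPM (median 17.5). Mtap rose with casein MR (log2 fold change 0.40 ± 0.08, adjusted p = 0.000498), in all 24 fits without 1 library. With elemental MR the value was 0.04 ± 0.08, with a 95% interval from -0.13 to 0.21 (adjusted p = 0.815).

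**Figure D2:**
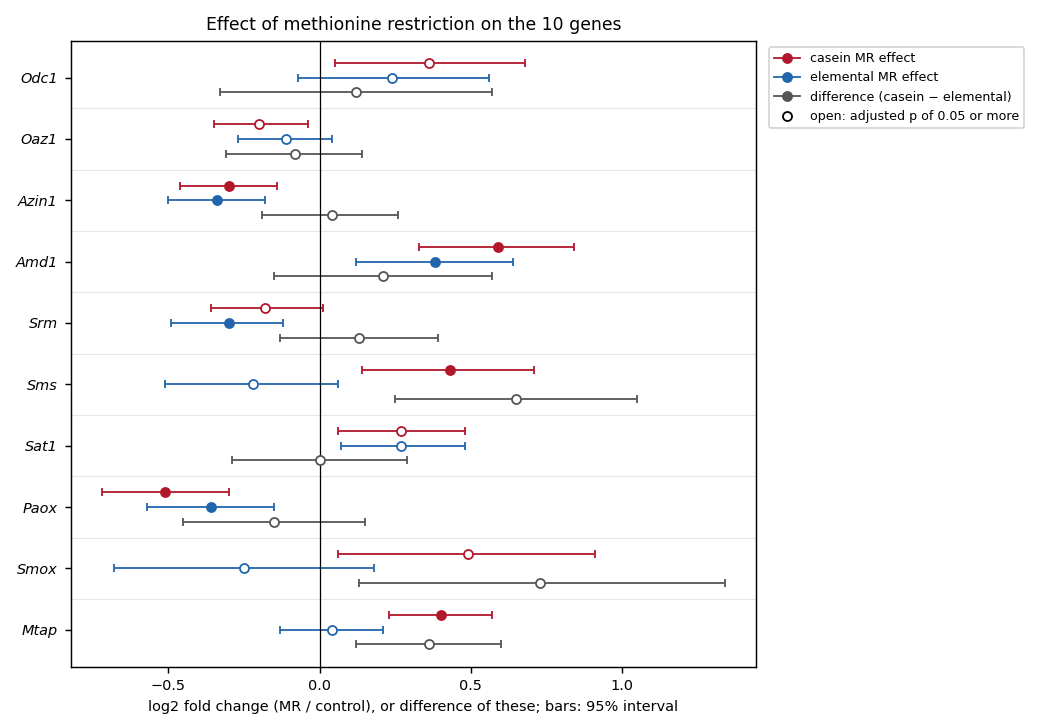
Log2 fold change of MR over control with casein (red) and with elemental amino acids (blue), and the difference between them (grey, casein minus elemental), with 95% intervals; filled points passed an adjusted p of 0.05. Amd1, Azin1 and Paox are filled for both proteins, and no difference is filled.

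Whether MR acted differently on the protein sources was tested as the casein effect minus the elemental effect. None of the 10 genes passed in edgeR or in DESeq2, with 3 at an unadjusted p under 0.05 in edgeR (as were 12.3% of all genes), where after adjustment 2.34% of all genes passed (0.781% with a positive and 1.56% with a negative difference). The 3 were Sms (difference 0.65 on the log2 scale, 95% interval 0.25 to 1.05, adjusted p = 0.08), Mtap (0.36, 0.12 to 0.60, adjusted p = 0.112) and Smox (0.73, 0.13 to 1.34, adjusted p = 0.259). The Sms difference passed without C_MR_3419 or without E_C_3430 (lowest adjusted p = 0.0271), and that of Mtap without C_MR_3431 (adjusted p = 0.0431). A passed test with 1 protein and not with the other is therefore no shown difference for Sms, Mtap or Srm (Srm difference 0.13, interval -0.13 to 0.39). For Sat1 the difference was 0.00, with an interval from -0.29 to 0.29, and for Azin1 it was 0.04, from -0.19 to 0.26. Averaged over both proteins, 8 of the 10 genes passed (4 higher, 4 lower), where 30.2% of all genes passed (14.7% higher, 15.5% lower). This average uses the same libraries as the separate comparisons. Amd1 (0.48 ± 0.09), Odc1, Sat1 and Mtap (0.22 ± 0.06) were higher, and Paox (-0.44 ± 0.07), Azin1 (-0.32 ± 0.05), Srm (-0.24 ± 0.06) and Oaz1 were lower.

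The protein sources were also compared at the same methionine level, using the same groups again. None of the 10 genes passed between casein control and elemental control in edgeR or DESeq2. At an unadjusted p under 0.05 there were 3 in edgeR, as were 11.7% of all genes, and 2 in DESeq2. After adjustment 0.104% of all genes passed in edgeR, 0.0298% higher and 0.0744% lower in casein control. None of the 10 passed between casein MR and elemental MR in either tool. At an unadjusted p under 0.05 there were 3 in each tool, as were 19.1% of all genes in edgeR. After adjustment 6.5% of all genes passed in edgeR, 2.72% higher and 3.78% lower in casein MR. On the control diets the values farthest from 0 were those of Sms (-0.37, 95% interval -0.65 to -0.08) and Smox (-0.30, -0.74 to 0.13), both with lower means in casein control than in elemental control. On the MR diets they were those of Smox (0.43, 0.01 to 0.85) and Sms (0.28, 0.00 to 0.56), both with higher means in casein MR than in elemental MR. For Sms and Smox the order of the group means was casein MR, elemental control, elemental MR and casein control from high to low. In edgeR the 3 at an unadjusted p under 0.05 on the control diets were Srm (-0.25, -0.43 to -0.06), Sms and Mtap (-0.17, -0.34 to 0.00). All 3 had lower means in casein control. Those on the MR diets were Mtap (0.19, 0.03 to 0.35), Smox and Sms, with higher means in casein MR.

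**Figure D3:**
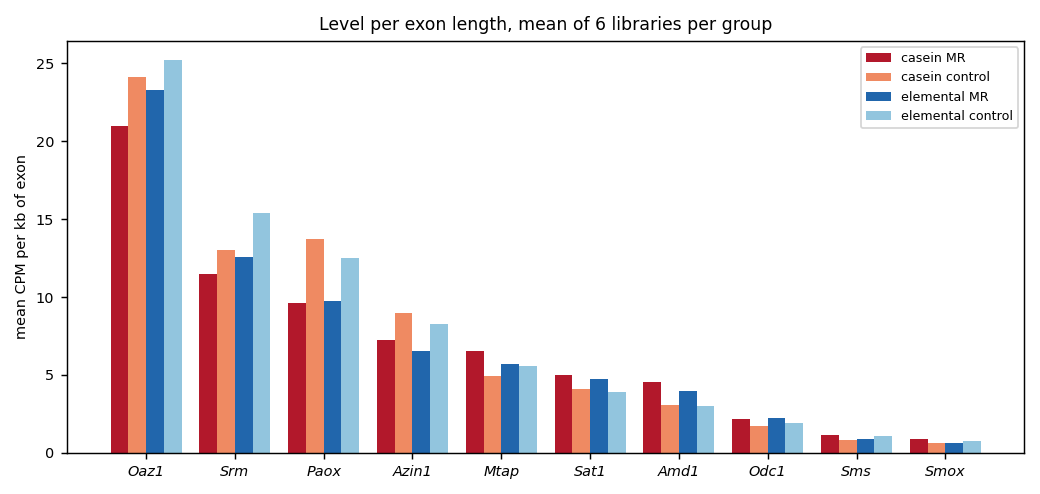
Mean CPM per kb of annotated exon (vertical axis, from 0) for the 10 genes in the 4 diet groups, each bar the mean of 6 libraries, genes ordered by their mean over groups. Oaz1 stands highest and Smox lowest in all 4 groups.

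Levels of different genes were set side by side only per exon length, taken from GENCODE M21, a reference annotation that may not be the one used for counting. The length covers every annotated exon of a gene, used in liver or not, so the order of genes may depend on the annotation. Oaz1 had the highest level per length, at 21.0 CPM per kb in casein MR, 24.1 in casein control, 23.3 in elemental MR and 25.2 in elemental control. Srm (13.1 CPM per kb as the mean of groups) and Paox (11.4) followed, then Azin1 (7.76), Mtap (5.68) and Sat1 (4.43). Amd1 stood at 4.57 CPM per kb in casein MR, 3.05 in casein control, 3.95 in elemental MR and 3.02 in elemental control. Odc1 (2.01 as the mean of groups), Sms (0.983) and Smox (0.725) were lowest. The antizyme transcript thus stood above that of antizyme inhibitor per length, and that above ornithine decarboxylase, in every diet group.

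The promoter sequences shown are those of Amd1, Mtap and Paox, the genes with the smallest adjusted p with casein MR, so that the regions before genes that rose (Amd1, Mtap) and fell (Paox) can be read beside their values. Each run is the 250 bases before the annotated start of the gene (RefSeq, build GRCm38.p6), on the strand of the gene, and capitals mark motif matches.
Amd1, chr10:40302189-40302438, minus strand: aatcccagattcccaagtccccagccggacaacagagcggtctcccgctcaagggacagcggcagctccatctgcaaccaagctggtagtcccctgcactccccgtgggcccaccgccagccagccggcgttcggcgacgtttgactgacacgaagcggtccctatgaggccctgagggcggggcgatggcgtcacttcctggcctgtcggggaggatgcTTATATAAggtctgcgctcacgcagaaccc
Mtap, chr4:89137120-89137369, plus strand: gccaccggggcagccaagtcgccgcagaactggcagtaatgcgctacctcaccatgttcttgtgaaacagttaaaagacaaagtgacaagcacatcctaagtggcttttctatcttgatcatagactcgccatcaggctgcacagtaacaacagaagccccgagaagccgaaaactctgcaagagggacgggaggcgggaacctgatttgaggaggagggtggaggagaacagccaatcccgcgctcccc
Paox, chr7:140125407-140125656, plus strand, the start farther upstream of the pair annotated: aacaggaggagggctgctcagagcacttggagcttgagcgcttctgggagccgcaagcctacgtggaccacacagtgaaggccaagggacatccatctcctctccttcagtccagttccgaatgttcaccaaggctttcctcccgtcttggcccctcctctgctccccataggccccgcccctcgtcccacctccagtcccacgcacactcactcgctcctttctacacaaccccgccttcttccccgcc

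Windows of this kind were found for 8 of the 10 genes (10 windows), and 5 motifs were searched on both strands. The promoter element spelled TATAA was found in the Amd1 window on both strands, in overlapping matches that begin 30 and 27 bases before the start, and in 22.8% of 32851 windows in the reference. CACGTG, an E-box, was found in 1 of the 2 Sms windows, 196 bases before the start, and in 6.02% of all windows. TGACNNNGC, the core of the antioxidant response element, was found in the Smox window (193 bases before the start) and the Oaz1 window (13 bases before) and in 10.2% of all windows. TGATGNAA, an ATF4 element (3.45% of all windows), and TGACGTCA, a cAMP response element (1.55%), matched in none of the 10 windows. A match describes letters in a window and is no evidence of binding.

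The genes around the pathway were taken as 5 lists with 27 genes, of which 21 were tested. Amd2 and Arg2 were below the filter on low counts, and Oaz3, Atp13a4, Slc22a2 and Eif5a2 had no row under these symbols. With casein MR 1 of the 21 rose and 6 fell, and 14 did not pass. With elemental MR 4 rose and 17 did not pass. Of all genes tested, 23.3% passed with casein MR and 13.4% with elemental MR.

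**Figure D4:**
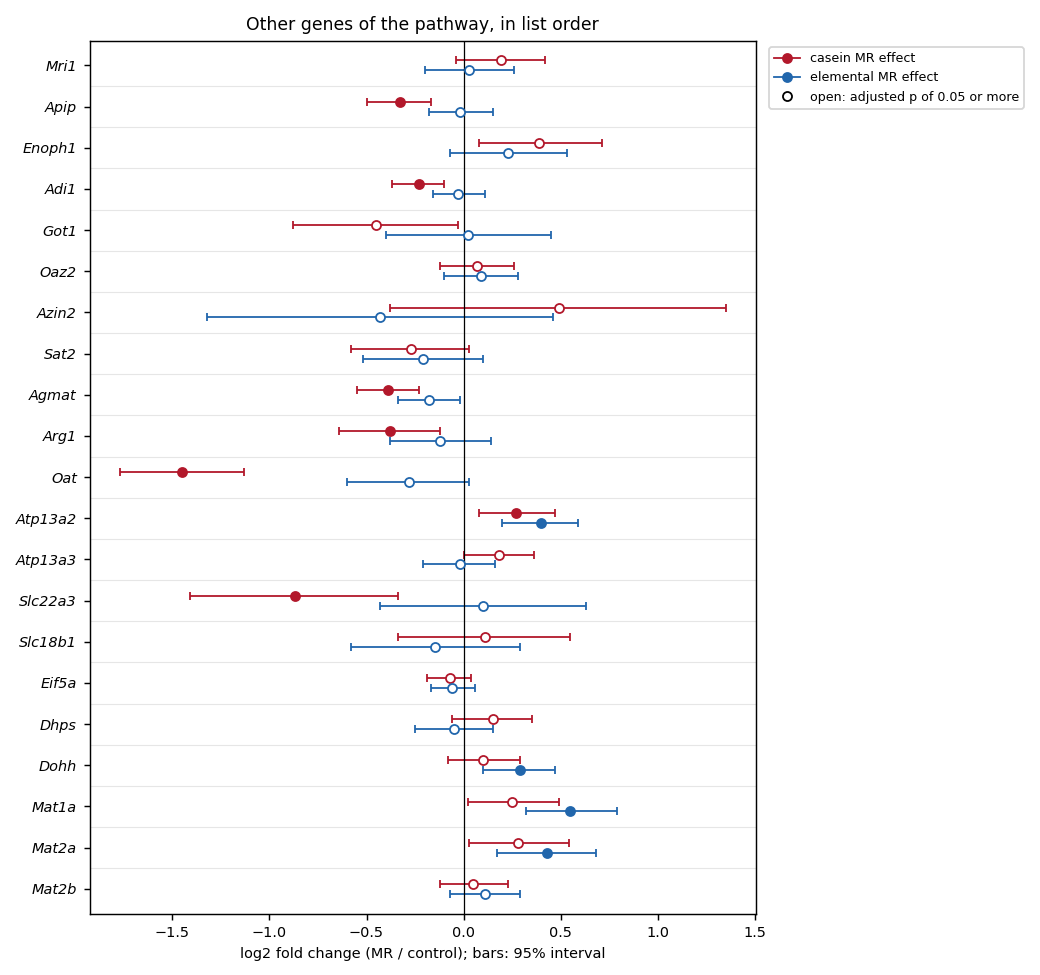
Log2 fold change of MR over control (horizontal axis, with 95% intervals) for the 21 tested genes around the pathway, with casein (red) and with elemental amino acids (blue); filled points passed an adjusted p of 0.05. Oat stands farthest from 0, at -1.45 with casein and -0.28 with elemental amino acids.

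S-adenosylmethionine synthesis precedes Amd1. Mat1a, the S-adenosylmethionine synthetase of adult liver, rose with elemental MR to 2870 ± 174 CPM, against 1960 ± 246 CPM in elemental control (SD, n = 6; log2 fold change 0.55 ± 0.11, adjusted p = 0.00141). Mat2a, the form found in most other tissues, also rose with elemental MR (0.43 ± 0.13, adjusted p = 0.0233), a call lost without E_C_3418 or E_C_3427 (highest adjusted p = 0.0675). With casein MR neither passed (Mat1a 0.25 ± 0.11, adjusted p = 0.119; Mat2a 0.28 ± 0.13, adjusted p = 0.110) in the fit of all groups, and the differences between the MR effects did not pass (Mat1a -0.30, Mat2a -0.14). Mat2a passed in 1 of 6 alternatives, with the casein groups fitted alone (adjusted p = 0.0406, against 0.506 as the highest among the alternatives). Mat1a passed without C_MR_3412 or without C_C_3413 (lowest adjusted p = 0.0468). Mat2b, the regulatory subunit of the Mat2a enzyme, had values of 0.05 and 0.11 with casein and elemental MR.

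Of the 6 tested genes listed as other polyamine metabolism, 3 fell with casein MR (Oat, Arg1 and Agmat) and 3 did not pass, where 12.7% of all genes were called lower. Oat, ornithine aminotransferase, which removes ornithine from the path to putrescine, averaged 166 ± 22.7 CPM in casein MR and 454 ± 157 CPM in casein control, and 340 ± 56.7 CPM in elemental MR and 414 ± 54.6 CPM in elemental control (SD, n = 6). It fell with casein MR (-1.45 ± 0.16, adjusted p = 6.86e-08). Its value with elemental MR was -0.28 ± 0.15 (adjusted p = 0.246), and the difference between these effects passed (-1.16 ± 0.22, adjusted p = 0.00238). Arg1, the arginase of the urea cycle, which makes ornithine, fell with casein MR (-0.38 ± 0.13, adjusted p = 0.0316) and had -0.12 ± 0.13 with elemental MR. The Arg1 call was lost with 1 surrogate variable (adjusted p = 0.467) and without C_MR_3412, C_MR_3419 or C_MR_3431 or C_C_3413 or C_C_3437 (highest adjusted p = 0.100). Agmat, annotated as agmatinase, fell with casein MR (-0.39 ± 0.08, adjusted p = 0.000423) and had -0.18 ± 0.08 with elemental MR (adjusted p = 0.124). Unlike for Oat, the differences between the effects did not pass for Arg1 or Agmat (adjusted p = 0.632 and 0.465). Sat2, a relative of Sat1, did not pass with casein MR (-0.27) or with elemental MR (-0.21).

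In the later steps of methionine salvage, 2 of 5 genes fell with casein MR, where 12.7% of all genes were called lower. They were Apip, the dehydratase (-0.33 ± 0.08, adjusted p = 0.00301), and Adi1, the dioxygenase (-0.23 ± 0.07, adjusted p = 0.0107), while Mtap at the head of the pathway rose. The Adi1 call was lost with 1 surrogate variable (adjusted p = 0.133). Enoph1, the enolase-phosphatase between them, had a value of 0.39 ± 0.15 (adjusted p = 0.0652, and called without C_C_3407 or E_C_3428, lowest adjusted p = 0.0139), and Got1, an aminotransferase, -0.45 ± 0.21 (adjusted p = 0.122). Enoph1 passed with casein MR in 0 of 6 alternatives (highest adjusted p = 0.351). With elemental MR the 4 named genes had values from -0.03 to 0.23 and did not pass. For Apip and Adi1 the differences between the effects did not pass either (adjusted p = 0.192 and 0.346).

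Of the 4 tested genes of polyamine transport, Atp13a2, a lysosomal polyamine exporter, rose with casein MR (0.27 ± 0.09, adjusted p = 0.0364) and with elemental MR (0.40 ± 0.09, adjusted p = 0.0048). Slc22a3, an organic cation transporter, fell with casein MR (-0.87 ± 0.26, adjusted p = 0.0142) and had 0.10 ± 0.26 with elemental MR. With 1 surrogate variable neither casein call held (adjusted p = 0.385 for Atp13a2 and 0.202 for Slc22a3). That of Atp13a2 was also lost without C_MR_3419, C_MR_3431 or C_MR_3433 or C_C_3413 or C_C_3421 (highest adjusted p = 0.104), and that of Slc22a3 without C_C_3407 (adjusted p = 0.0620). The differences between the effects did not pass for either gene (adjusted p = 0.792 and 0.218). Atp13a3 (0.18 and -0.02) and Slc18b1, a vesicular polyamine transporter (0.11 and -0.15, casein and elemental MR), did not pass, although Atp13a3 passed with casein MR without C_C_3436 (adjusted p = 0.0480). Spermidine is also the source of hypusine, a modified residue of the translation factor eIF5A. Dohh, which completes that modification, rose with elemental MR (0.29 ± 0.09, adjusted p = 0.0306) and had 0.10 ± 0.09 with casein MR. That call was lost without E_MR_3403, E_MR_3405 or E_MR_3420 or E_C_3401, E_C_3417, E_C_3418 or E_C_3427 (highest adjusted p = 0.0844). The difference between the Dohh effects did not pass (adjusted p = 0.621). Dhps, which starts the modification (0.15 and -0.05), and Eif5a (-0.07 and -0.06, casein and elemental MR) did not pass.

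The group means of Amd1 on the log2 CPM scale spanned 0.61, the widest of the 10 genes, with casein MR highest, then elemental MR, casein control and elemental control. The test of casein MR against elemental MR did not pass for Amd1 (log2 difference 0.21, 95% interval -0.04 to 0.46). Nor did that of casein control against elemental control (0.01, -0.26 to 0.27). Among the 10066 genes whose log2 CPM averaged 1 or more, the 5 with centred group means nearest to those of Amd1 were Fosl2, Pomgnt2, Pla2g6, Slc23a2 and Gpd1l. Their root mean square differences from Amd1 were 0.0061 (Fosl2) to 0.019 (Gpd1l) on the log2 scale, over 4 group means. These differences were smaller than the SE of the Amd1 MR effects (0.12), so their order is not resolved. Whether these genes share regulation with Amd1 was not tested. Fosl2, a subunit of the AP-1 transcription factor, averaged 14.1 CPM in casein MR, 8.98 in casein control, 11.7 in elemental MR and 8.92 in elemental control. Pla2g6, a phospholipase, averaged 41.9, 27.6, 36.1 and 27.1 CPM in those groups.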

How the data were processed

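The deposited raw table holds read counts per Ensembl gene and library, and each gene in it has at least 72 reads in all. The deposited normalized table holds a signal that was checked to equal these counts divided by 1 size factor per library (0.745 to 1.32), and it was used for symbols (13002 genes). A reference annotation named 2119 more genes, and 40 had no name. For the aligner, the counting tool, strand and build: not given in the sources used here.

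Counts were tested in R 4.3.3 with edgeR 4.0.16: filterByExpr (99.9% of reads kept), TMM scaling, and 1 quasi-likelihood fit of the 24 libraries with a mean per group. Benjamini-Hochberg adjustment covered all 13441 genes in each of 6 comparisons, with a call at an adjusted p under 0.05. SEs come from the fold change and its F statistic, and log2 CPM has a prior count of 2. The code was tested on simulated data. No 2 libraries were identical (0 pairs). The labels name no batch, and 0 columns were left unused. Alternatives were median-of-ratios and upper quartile scaling, no filter, DESeq2 1.42.0, 1 surrogate variable (sva 3.50.0), the compared groups alone, summed gene copies (Amd2, Oaz1-ps) and leaving out each library.

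The members and gene lists were chosen with earlier results of these data known. A gene left out of the lists is not reported here. Besides the 10 genes, those named were up to 4 per list with the smallest p in the MR comparisons, and the 5 genes nearest in pattern to the member with the widest range of group means. The motifs and promoters shown were chosen after the values were seen.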

Additional observations from a re-analysis of the deposited data

Results flagged for a closer look

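Groups of 6 libraries were examined for a library far from the others, in 112 groups of the 10 genes and the named genes around the pathway, and 4 were marked, where chance marks about 1 in 20. Among the 10 genes this was Paox in elemental control, where library E_C_3428 was at 52.9 CPM and the others at 61.7 to 64.6 CPM. The same library was lowest for Enoph1, at 1.88 CPM against 2.68 to 3.02 CPM. Oat was at 762 CPM in C_C_3437 and at 338 to 463 CPM in the other casein controls. Dhps was at 5.93 CPM in C_C_3421 and at 6.83 to 7.37 CPM in the others.

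The effect of MR on Oat differed between the protein sources, by -1.16 on the log2 scale (casein minus elemental, adjusted p = 0.00238, edgeR's quasi-likelihood test), and this call held in all 24 fits that left out 1 library (-1.24 to -0.95).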

How the results depend on the processing

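The count of the 10 genes called stayed within 1.5 times its value in each comparison under the other scalings, without the filter, with DESeq2, with 1 surrogate variable and, for comparisons of 2 groups, with those groups alone (3 to 4 with elemental MR, 5 to 7 with casein MR, 7 to 8 for the average, and 0 for the difference and for casein against elemental). Leaving out 1 library, it ran from 2 to 4 with elemental MR, from 4 to 7 with casein MR, from 6 to 8 for the average and from 0 to 1 for the difference. Without C_MR_3438, 5 were called with casein MR. With 1 surrogate variable 2052 genes in all were called with casein MR, against 3137. Directions turned in values near 0: the Sat1 difference was 0.01 with upper quartile scaling, 0.00 without the filter, 0.08 with 1 surrogate variable and up to 0.06 without 1 library, and the Azin1 difference was as low as -0.02. With elemental MR, values ran on leaving out 1 library from -0.02 to 0.10 for Mri1, -0.08 to 0.03 for Apip, -0.05 to 0.01 for Adi1, -0.14 to 0.13 for Got1, -0.08 to 0.02 for Atp13a3 and -0.10 to 0.22 for Slc22a3. With casein MR 1 surrogate variable turned Oaz2 (-0.04) and Mat2b (-0.03). None of these values was called, and the cause was not tested. Among the 10 genes Smox had the fewest reads, 22 to 85 in a library, and of the other named genes Enoph1 had 17 to 61. No paired analysis was possible because the libraries of the compared groups share no numbers.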
